A study of Papio hamadryas with 14 samples.

Results

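Globin genes and other genes of red cell formation were followed through fetal development of the baboon kidney. The 9 genes are the embryonic globins HBE1 and HBZ, the adult-type globins HBB and HBD, and the red cell genes ALAS2, RHAG, BPGM, TFRC and SLC25A37. They were chosen by name, with earlier results of these data known. Every probe set whose platform annotation gives one of these symbols alone was taken, in the fetal and the adult table. That gave 16 probe sets, out of 14068 probe sets for 9580 genes with a single symbol. The mean signal of 9 of the 16 lay above the filter used for testing, which was the median of all probe sets, a signal of 178. The 7 dimmer ones are those of HBZ, HBD and ALAS2, 2 of the 3 for RHAG and 2 of the 3 for SLC25A37, and they are described from their signals and from a fit without the filter. Whole kidneys of Papio hamadryas were taken at 4 fetal stages, with 2 arrays for 60 days of gestation (60dG) and 3 for each of 90dG, 125dG and 160dG. A further 3 arrays are from adults, of 6, 7 and 12 years of age. Fetal replicates are biological according to the labels, which give no treatment, genotype or strain beyond the species. The arrays are human Affymetrix arrays, so the signal of a baboon transcript also depends on how well it pairs with human probes. The adult arrays are of another array type with a table of their own, and no test was made across the 2 tables.

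Haemoglobin is a tetramer of alpha-type and beta-type chains. In primates, red cells of the early embryo carry the zeta chain (HBZ) and the epsilon chain (HBE1), fetal red cells carry alpha chains with gamma chains (HBG1 and HBG2), and adult red cells carry alpha with beta chains (HBB), a succession called globin switching. Red cells of a primate fetus are made in the yolk sac, liver and marrow, and a whole kidney also holds blood, in which reticulocytes and nucleated red cells carry globin messenger RNA. ALAS2, RHAG, BPGM, TFRC and SLC25A37 serve red cells of every stage, and the design asks which of these genes follow the successive stages of development. In bulk tissue, fewer cells of a type and less RNA per cell cannot be told apart.

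The arrays are alike in overall level. Their median probe set signals ranged from 172.9 to 194.6 in the fetal table and from 210.2 to 214.4 in the adult table. Scaling of each array before deposit would by itself give such likeness, so it is not taken as a sign of quality. The GAPDH control ratio, 3' over 5', a measure of RNA quality, ranged from 1.62 to 1.99 on the fetal arrays other than 90dG replicate 2, with 2.46, and 90dG replicate 3, with 3.43. Kidney markers were present, with a summed signal of 4121 to 6872 at 160dG and 1836 to 2304 at 60dG over 5 of 7 markers that have a probe set. Precision is limited by the number of arrays, which have no count depth.

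Over the 4 fetal stages, 4 of the 9 member probe sets above the filter differed (limma moderated F, adjusted p under 0.05), against 17.8% of all 8066 tested probe sets. They are that of HBE1, which fell, and the 3 of HBB, which were highest at 160dG. The 5 others, for RHAG, BPGM, TFRC and SLC25A37, had adjusted p between 0.193 and 0.982 in the limma F test. HBE1 and HBB signal thus moved in opposite directions, and no change over the stages was called for the red cell genes above the filter. The 3 HBB probe sets measure the same gene on the same arrays, and the members were chosen with earlier results of these data known. The count beside the share over all probe sets is therefore a description and not a test of the members as a group. Alpha globin, also part of adult haemoglobin, is described below from probe sets outside the members.

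HBE1 encodes the epsilon chain, the beta-type chain of embryonic haemoglobin. Its probe set gave signals of 1127 and 2500 at 60dG, 2221, 1144 and 1633 at 90dG, 399, 182 and 271 at 125dG, and 112, 119 and 136 at 160dG. The 60dG and 90dG arrays overlapped, every 125dG array lay below every 90dG array, and every 160dG array lay below every 125dG array. The means were 122 ± 12.4 at 160dG (SD, n = 3) and 1814 ± 971 at 60dG (SD, n = 2), 14.9-fold lower at 160dG. On the scale of log2(signal + 16), HBE1 fell by 3.62 ± 0.36 (SE) between these stages (limma, adjusted p = 3.24e-05).

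Most of that fall lay between 90dG and 125dG. There HBE1 fell by 2.50 ± 0.32 (limma, adjusted p = 0.00474), the means being 284 ± 109 at 125dG and 1666 ± 539 at 90dG (SD, n = 3 each). The call held without each array in turn (adjusted p from 0.0016 to 0.0203) and in each of 9 other alternatives (0.00285 to 0.0339). Between 60dG and 90dG the difference was -0.06 ± 0.36 (limma, adjusted p = 0.933). Between 125dG and 160dG it was -1.06 ± 0.32 and did not pass (limma, adjusted p = 0.318).

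HBZ encodes the zeta chain, the alpha-type chain of embryonic haemoglobin. Its signals were 299.7 and 420.5 at 60dG, 190.1, 104.5 and 320.0 at 90dG, 37.0, 39.2 and 6.5 at 125dG, and 20.7, 8.9 and 6.0 at 160dG. The 60dG and 90dG arrays overlapped, and no 125dG or 160dG array reached the lowest 90dG array. By 160dG the probe set lay at a median within-array percentile of 2.43, among the dimmest on the array, so the values there have no meaningful order. Its mean over the fetal arrays lay below the filter. In the fit without a filter, HBZ fell by 3.77 ± 0.51 between 60dG and 160dG (limma, adjusted p = 5.42e-04) and by 2.33 ± 0.46 between 90dG and 125dG (limma, adjusted p = 0.0223). In that fit 4.83% and 2.34% of all probe sets were called in these comparisons. Leaving out 90dG replicate 3 (limma, adjusted p = 0.088) or any of the 125dG replicates (0.0637, 0.0528 and 0.0863) ended the second call. With the joint alpha probe sets described below as a covariate, neither call remained, with HBZ differing by -1.48 between 60dG and 160dG (limma, adjusted p = 0.642) and by -1.52 between 90dG and 125dG (0.176). With HBB as the covariate the differences were -5.59 (limma, adjusted p = 0.0755) and -2.90 (0.0415).

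HBB encodes the beta chain of adult haemoglobin and has 3 probe sets. Their names end in _x_at, which in Affymetrix naming marks probes that may pair with other similar transcripts. The probe set 211696_x_at, the brightest over the fetal arrays, gave 315 and 238 at 60dG, 275, 191 and 299 at 90dG, 334, 332 and 298 at 125dG, and 687, 536 and 573 at 160dG. The 3 arrays at 160dG were above all other fetal arrays, and the earlier stages lay close together. HBB rose by 1.08 ± 0.22 between 60dG and 160dG on this probe set (limma, adjusted p = 0.00726).

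The other HBB probe sets were also highest at 160dG, and they differed from each other at 60dG. The signals of 209116_x_at were 221 and 295 at 60dG, 238, 344 and 373 at 90dG, 271, 227 and 204 at 125dG, and 650, 419 and 585 at 160dG, a rise of 1.04 ± 0.25 at 160dG relative to 60dG (limma, adjusted p = 0.0183). Those of 217232_x_at were 139.3 and 73.1 at 60dG, 343, 335 and 297 at 90dG, 358, 310 and 298 at 125dG, and 618, 684 and 596 at 160dG, a rise of 2.46 ± 0.23 (limma, adjusted p = 2.48e-05). The size of the HBB rise therefore depended on the probe set. At 60dG 217232_x_at was dimmer than on every 90dG and 125dG array, whereas the 60dG signals of the other sets overlapped those of 90dG. Leaving out 60dG replicate 1 (limma, adjusted p = 0.2), 160dG replicate 1 (0.0694) or 160dG replicate 3 (0.0571) ended the call of 209116_x_at, whose adjusted p ranged from 0.00966 to 0.2 over the left-out arrays. Leaving out 60dG replicate 2 ended that of 211696_x_at (limma, adjusted p = 0.0986; range 0.00504 to 0.0986).

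The steps between stages divided the HBB rise in different ways. Between 60dG and 90dG, 217232_x_at rose by 1.53 ± 0.23 (limma, adjusted p = 0.00261), while 209116_x_at differed by 0.28 ± 0.25 (0.52) and 211696_x_at by -0.12 ± 0.22 (0.775). Between 90dG and 125dG none of the 3 HBB probe sets was called. Between 125dG and 160dG the differences were 1.17 ± 0.23 for 209116_x_at, 0.86 ± 0.20 for 211696_x_at and 0.94 ± 0.21 for 217232_x_at, and none passed (limma, adjusted p = 0.0536, 0.139 and 0.101). In this step every 160dG array was above every 125dG array on each of the 3.

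HBD encodes the delta chain of the minor adult haemoglobin, a gene that is silenced in Old World monkeys. Its probe set was dim, with 60.9 and 36.7 at 60dG and means of 72.3 ± 48.0 at 90dG and 52.5 ± 43.4 at 125dG (SD, n = 3 each), and with 145.7, 84.6 and 117.4 at 160dG. The 160dG arrays were above the 60dG arrays and overlapped the 90dG and 125dG arrays. The difference between 60dG and 160dG was 1.02 ± 0.58 without the filter and did not pass (limma, adjusted p = 0.414).

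**Figure D1:**
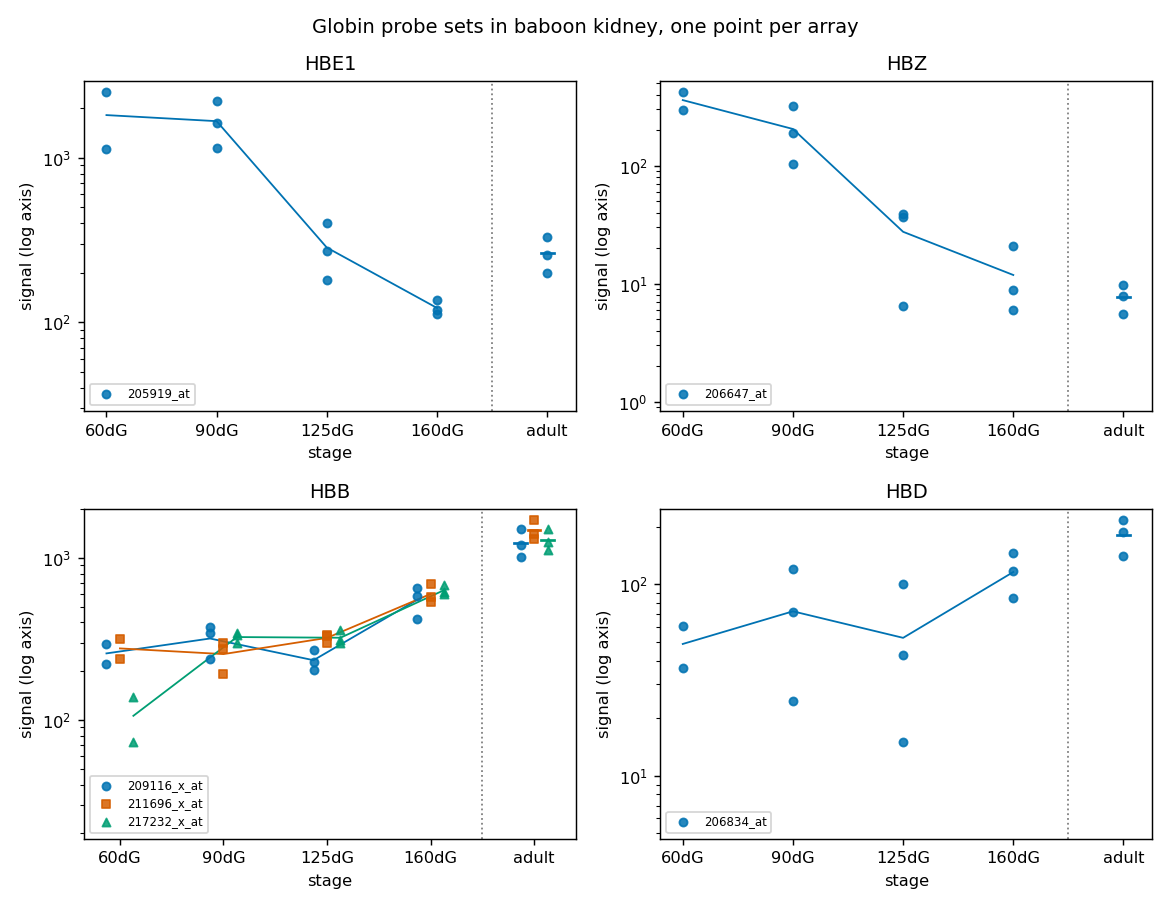
Signal of each globin probe set (y, log axis) by stage (x), one point per array, with a line through the fetal stage means and a short bar at the adult mean; the dotted line separates the adult arrays, which are another array type. HBE1 and HBZ are high at 60dG and 90dG and low from 125dG, HBB is highest among fetal stages at 160dG on each of its 3 probe sets, and HBD is dim and scattered.

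The major fetal chains are covered by probe sets that the platform annotates to a pair of genes, 3 jointly to HBG2 and HBG1 (gamma) and 6 jointly to HBA2 and HBA1 (alpha), so no single gene is named from them. They are not members, and they were examined after the member values were seen, as a measure of total red cell globin. Their group means for gamma were 8329 to 11396 at 60dG, 10512 to 14397 at 90dG, 5341 to 7651 at 125dG and 1823 to 2285 at 160dG. For alpha they were 8630 to 11902 at 60dG, 8355 to 10722 at 90dG, 3903 to 6203 at 125dG and 930 to 1985 at 160dG. Both kinds were thus far lower at the end of gestation, although alpha chains are part of fetal and adult haemoglobin alike.

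Between 60dG and 160dG the 6 alpha probe sets differed by -2.40 to -3.38 (limma, adjusted p from 5.04e-04 to 0.00295), and the 3 gamma probe sets by -1.96 to -2.33 (5.04e-04 to 0.0047). Among the single steps, 2 of the 3 gamma probe sets passed between 90dG and 125dG (limma, adjusted p = 0.0396 and 0.0449). None of the 6 alpha probe sets passed in that step, and neither kind passed between 125dG and 160dG. Replicate 3 of 125dG stood apart in these probe sets, with 1573 on the alpha set 204018_x_at against 4628 and 5508 on the other 125dG arrays, and 3603 on the gamma set 204419_x_at against 11392 and 7958. HBE1 on that array, at 271, lay between the other 125dG arrays. HBZ (6.5), HBD (15) and the 3 HBB probe sets (204, 298 and 298) were each lower there than on the other 125dG arrays.

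**Figure D2:**
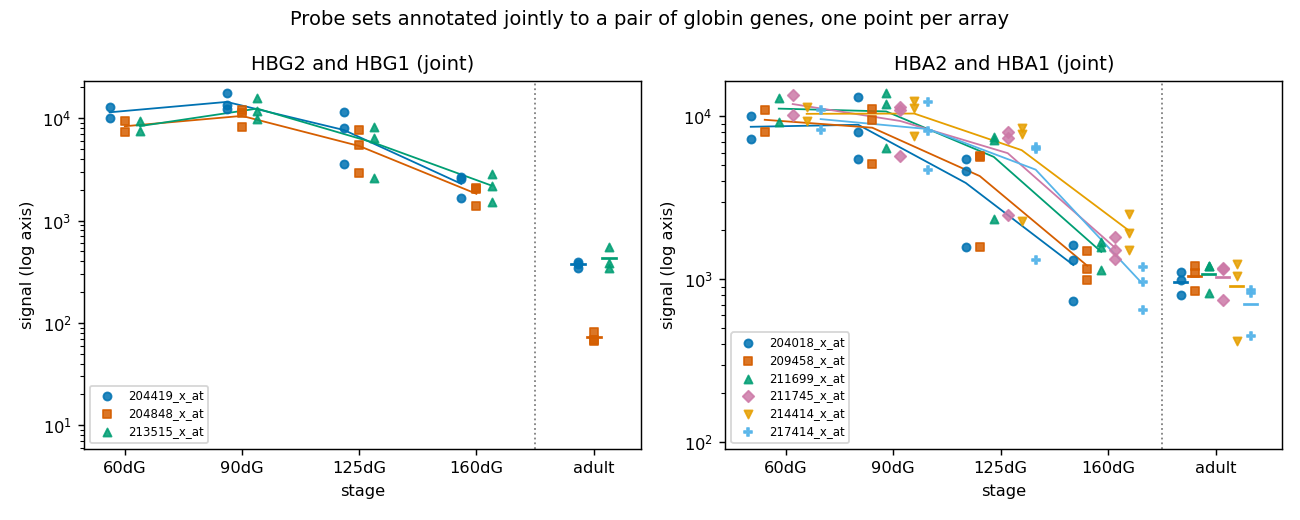
Signal (y, log axis) by stage (x) of the 3 probe sets annotated jointly to HBG2 and HBG1 (left) and the 6 annotated jointly to HBA2 and HBA1 (right), one point per array, with lines through the fetal stage means and short bars at the adult means beyond the dotted line. Every probe set is lower at 160dG than at 60dG, and the lowest 125dG point in each is replicate 3.

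Differences between 2 globins within an array set aside how much blood that array held, as far as it changes both alike. Their level depends on the probes, so the change over stages is the quantity of interest. HBE1 minus HBB (211696_x_at) was 1.79 and 3.31 at 60dG, 2.94, 2.48 and 2.39 at 90dG, 0.25, -0.81 and -0.13 at 125dG, and -2.46, -2.03 and -1.96 at 160dG on the log2 scale. The 60dG and 90dG arrays overlapped and the 125dG and 160dG arrays each lay below the stage before. The slope was -0.53 log2 per 10 days over the 11 fetal arrays (exact two-sided permutation test over 92400 assignments of arrays to stages, adjusted p over 4 such relations = 1.95e-04). HBZ minus HBB had a slope of -0.53 (exact permutation test, adjusted p = 8.66e-05), with stage means of 0.36, -0.40, -3.06 and -4.49. HBZ was at 39.2 or less at 125dG and 160dG, so the size of its slope is uncertain. Over 4 alternatives of pseudocount, normalization and probe set, that slope ranged from -0.66 to -0.37. It passed in each (exact permutation test, adjusted p up to 1.73e-04).

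Set against ALAS2, the same embryonic globins also declined. HBE1 minus ALAS2 had stage means of 5.23, 4.66, 3.60 and 2.60 and a slope of -0.27 (exact permutation test, adjusted p = 8.77e-04), and HBZ minus ALAS2 had means of 3.04, 1.66, 0.77 and 0.26 and a slope of -0.26 (7.36e-04). At 125dG and 160dG every ALAS2 signal was 9.2 or less, under the pseudocount of 16, so HBE1 minus ALAS2 there follows HBE1. HBZ was itself at 39.2 or less at these stages, so HBZ minus ALAS2 there sets 2 dim probe sets against each other. With a pseudocount of 1, the slope of HBE1 minus ALAS2 was -0.17 and no longer passed (exact permutation test, adjusted p = 0.0502).

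Set against the joint alpha probe sets, a comparison added after the values were seen, the picture differed. HBB minus alpha had stage means of -5.12, -5.06, -3.70 and -1.14 and a slope of 0.42 (exact permutation test, adjusted p = 4.76e-04). HBE1 minus alpha had stage means of -2.57, -2.45, -3.93 and -3.29, and its slope of -0.11 did not pass (exact permutation test, adjusted p = 0.136). HBE1 minus alpha nevertheless did not overlap between 125dG (-5.10 to -2.72) and 90dG (-2.61 to -2.31), and at 160dG it ranged from -3.74 to -2.76. For HBZ minus alpha the means were -4.76, -5.45, -6.76 and -5.63, with a slope of -0.10 (exact permutation test, adjusted p = 0.136). The pseudocount decides that slope, which was -0.23 and called with a pseudocount of 1 (exact permutation test, adjusted p = 0.0176), and 0.039 with one of 64 (0.529). Gamma minus alpha had means of -0.13, 0.46, 0.37 and 0.62 and a slope of 0.057 (exact permutation test, adjusted p = 0.12).

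The alpha signal of each array was also added to the model as a covariate. HBE1 then differed by -3.05 between 60dG and 160dG (limma, adjusted p = 0.116), and the 3 HBB probe sets by 1.24, 1.54 and 2.48 (0.424, 0.197 and 0.0555), so none of the 4 was called. With HBB as the covariate HBE1 differed by -3.62 (limma, adjusted p = 0.0921). Both covariates differ between the 60dG and 160dG arrays without overlap, so in this comparison the covariate and the stage cannot be told apart. Over all alternatives without a left-out array, the difference for HBE1 ranged from -3.78 to -3.05 (adjusted p from 2.3e-05 to 0.116).

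**Figure D3:**
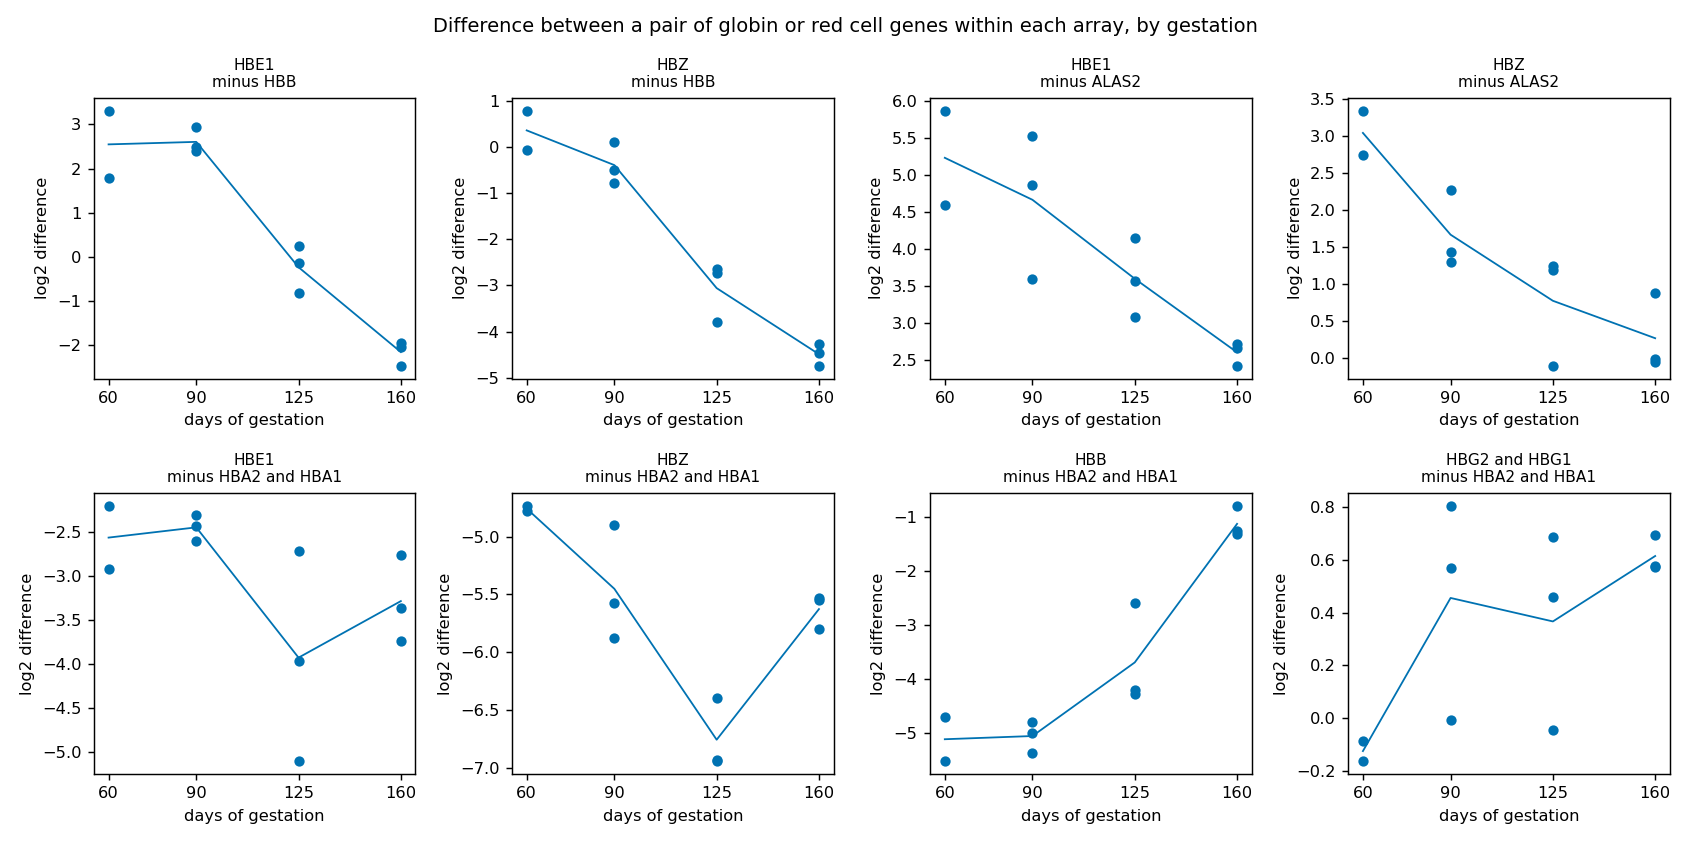
Difference in log2(signal + 16) between a pair of globins or red cell genes on the same array (y) against days of gestation (x), one point per array with a line through the stage means; each panel has its own y axis. HBE1 and HBZ decline against HBB and against ALAS2 (upper panels), HBB rises against the joint alpha probe sets, and HBE1, HBZ and the joint gamma probe sets show no called slope against alpha at the pseudocount of 16 drawn (lower panels).

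The other red cell genes showed no called change over the stages. ALAS2, the first enzyme of haem synthesis in erythroid cells, had signals of 31.3 and 27.1 at 60dG, 60.6, 9.1 and 120.7 at 90dG, 7.4, 7.4 and 8.3 at 125dG, and 4.1, 9.2 and 7.0 at 160dG. The 160dG arrays were below the 60dG arrays, and the 90dG arrays ranged more widely than any other stage. In the fit without a filter the difference between 60dG and 160dG was -0.99 ± 0.56 (limma, adjusted p = 0.419) and that between 90dG and 125dG -1.43 ± 0.50 (0.141). Without 90dG replicate 2, the array with the signal of 9.1, the difference between 90dG and 125dG was called at -2.11 (limma, adjusted p = 0.0414). Without 90dG replicate 3, the array with the signal of 120.7 and the GAPDH ratio of 3.43, it was -0.89 (limma, adjusted p = 0.408).

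RHAG encodes the Rh-associated glycoprotein of the red cell membrane and has 3 probe sets at very different levels. On 211254_x_at, the one above the filter, signals were 221 and 257 at 60dG, 331, 184 and 243 at 90dG, 207, 229 and 264 at 125dG, and 202, 311 and 253 at 160dG. All stages overlapped, and the difference between 60dG and 160dG was 0.07 ± 0.27 (limma, adjusted p = 0.907). The other 2 gave 19.6 to 74.3 (206145_at) and 5.5 to 44.6 (206146_s_at) over the fetal arrays, near the bottom of the range. The 3 probe sets thus do not give 1 level for RHAG, and the bright one is again of the _x_at kind.

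BPGM makes 2,3-bisphosphoglycerate, the molecule that lowers the oxygen affinity of adult haemoglobin. Its signals were 198 and 172 at 60dG, 250, 207 and 198 at 90dG, 200.1, 217 and 211 at 125dG, and 179.8, 222 and 215 at 160dG. The stages differed little, by 0.14 ± 0.23 between 60dG and 160dG (limma, adjusted p = 0.774).

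TFRC is the transferrin receptor, which brings iron into erythroid precursors and into dividing cells of other kinds. The probe set 208691_at gave 643 and 630 at 60dG, 435, 536 and 563 at 90dG, 479, 392 and 506 at 125dG, and 559, 460 and 498 at 160dG. The 60dG arrays were the highest, and the later stages overlapped. On 207332_s_at the means were 366 ± 8.13 at 60dG (SD, n = 2), 277 ± 101, 327 ± 38.0 and 220 ± 54.0 at the later stages (SD, n = 3 each). Between 60dG and 160dG the differences were -0.33 ± 0.19 and -0.72 ± 0.28, and neither passed (limma, adjusted p = 0.335 and 0.127).

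SLC25A37 encodes mitoferrin-1, which carries iron into the mitochondria of erythroid cells. On 218136_s_at its signals were 241 and 255 at 60dG, 262, 229 and 228 at 90dG, 258, 247 and 227 at 125dG, and 298, 278 and 285 at 160dG. The 160dG arrays were above every other fetal array, by a small margin, and the difference from 60dG was 0.20 ± 0.19 (limma, adjusted p = 0.597). The other SLC25A37 probe sets were dimmer and scattered, at 22.9 to 181.2 (218978_s_at) and 31.2 to 121.9 (221920_s_at).

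**Figure D4:**
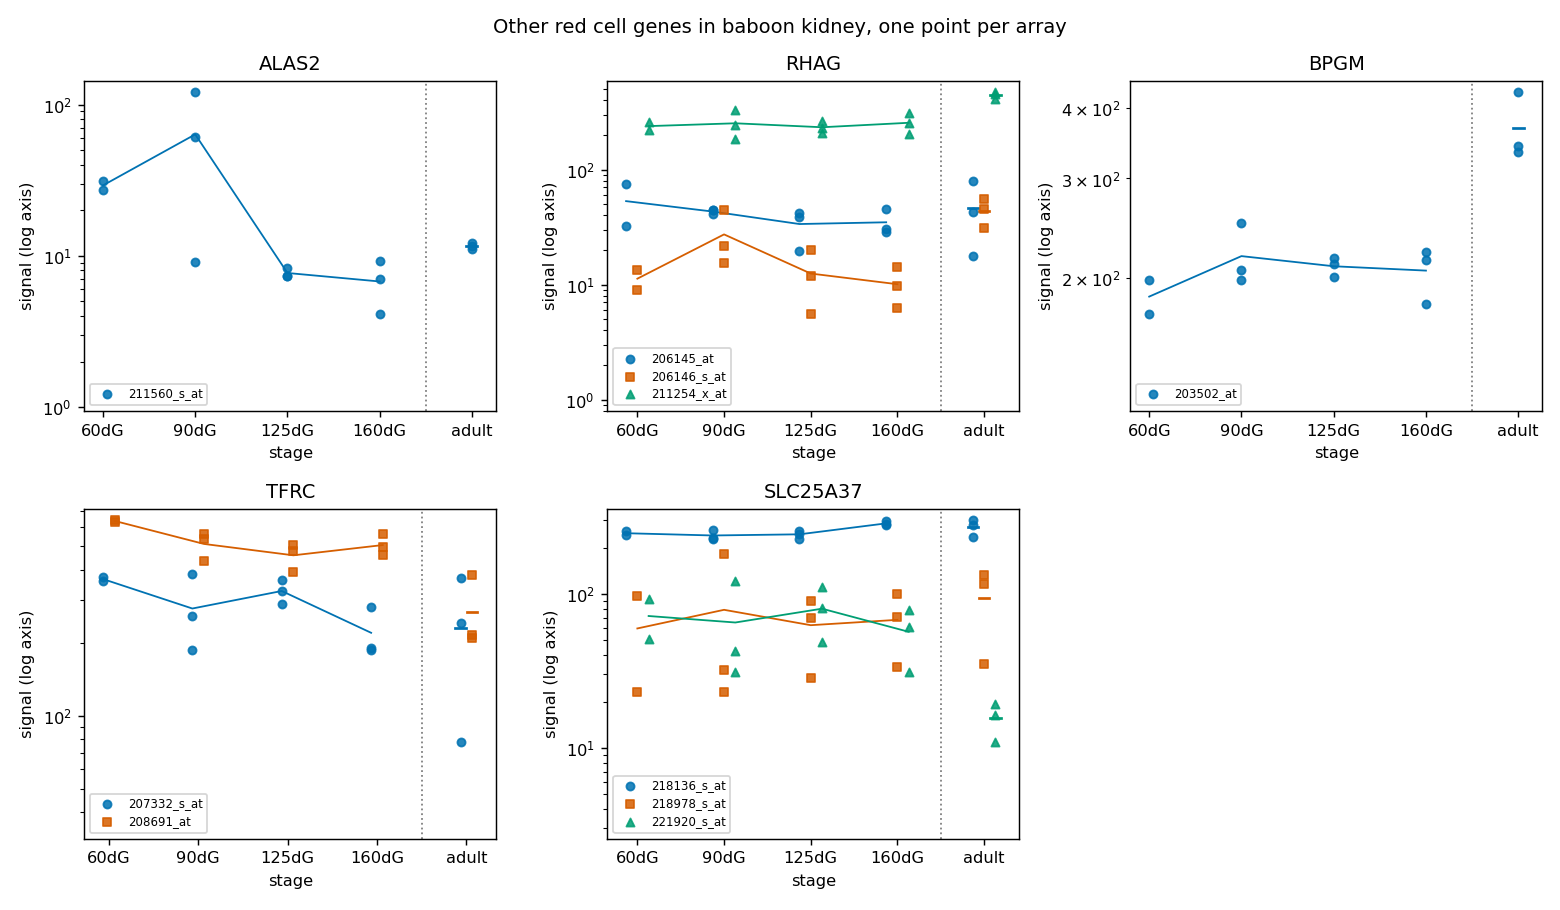
Signal (y, log axis) by stage (x) of the probe sets of ALAS2, RHAG, BPGM, TFRC and SLC25A37, one point per array, with lines through the fetal stage means and short bars at the adult means beyond the dotted line, where the array type changes. ALAS2 is dim throughout and lowest at 125dG and 160dG, and the brightest probe set of each other gene stays within a narrow range over the fetal stages.

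Counted by comparison, 4 of the 9 tested member probe sets were called between 60dG and 160dG, against 9.83% of all tested probe sets. The 3 of HBB rose, against 5.68% called higher, and that of HBE1 fell, against 4.15% called lower. The 3 HBB probe sets measure the same gene on the same arrays, so counts of probe sets are not counts of separate genes. Between 60dG and 90dG 1 of 9 was called, an HBB set, against 8.86%, a share near the background. Between 90dG and 125dG 1 of 9 was called, HBE1, against 6.77%. Between 125dG and 160dG limma called 0 of 9, against 0.223%, while 5 of 9 had an unadjusted p under 0.05, against 7.80% of all tested probe sets.

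On 7 of the 9 there was no overlap between 160dG and 60dG arrays, where 42.4% of all tested probe sets did not overlap. The 4 higher at 160dG are those of HBB and 218136_s_at of SLC25A37, and the 3 lower are that of HBE1 and both of TFRC. Between 125dG and 160dG 6 of 9 did not overlap, against 14.9%, and between 90dG and 125dG 1 of 9, against 29.1%. Between 60dG and 90dG 3 of 9 did not overlap, against 42.4%. Here too, the probe sets of HBB and those of TFRC count the same gene more than once.

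**Figure D5:**
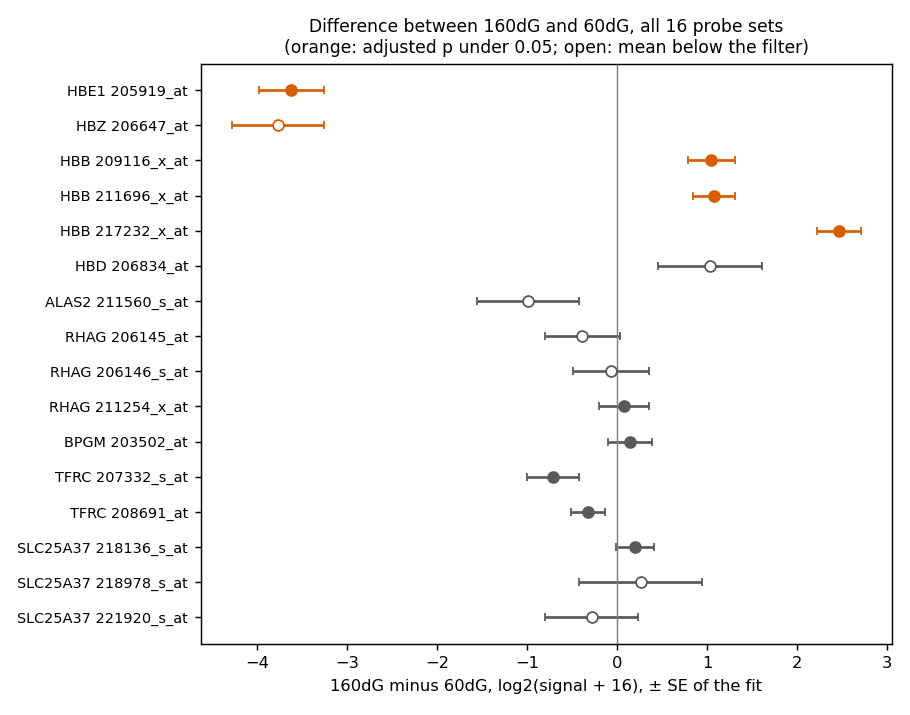
Difference between 160dG and 60dG in log2(signal + 16) (x) for each of the 16 member probe sets (y), with the SE of the limma fit without a filter as bars; orange marks an adjusted p under 0.05 in that fit, and open points mark probe sets whose mean lay below the filter. HBE1 and HBZ lie near -3.62 and -3.77, the 3 HBB probe sets lie between 1.04 and 2.46, and the other 11 were not called.

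Kidneys of the same stage can hold different amounts of blood, so the members were also compared over arrays after the stage means were removed. HBB and ALAS2 had a Pearson r of 0.70 and a Spearman rho of 0.43 over the 11 fetal arrays (exact permutation within stages, p = 0.19 and 0.366, adjusted over 4 relations 0.759 and 0.815). Without the 2 arrays farthest from the median of HBB, r was 0.84, but it was 0.031 without 90dG replicate 2 (range over left-out arrays 0.031 to 0.83) and 0.26 with the mean of all probe sets of each gene. HBB had an r of 0.047 with RHAG, -0.00059 with HBE1 and 0.052 with TFRC (exact permutation, adjusted p = 1 for each), and rho of -0.15, -0.11 and 0.21 (adjusted p = 0.815 for each). Without those 2 arrays the 3 values of r were 0.36, 0.036 and -0.17. None of these 4 pairs was therefore shown to vary together between kidneys of 1 stage, and other pairs of members were not tested. The r of HBB with RHAG was -0.83 without 90dG replicate 2 (exact permutation, adjusted p = 0.0278; range over left-out arrays -0.83 to 0.31).

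Markers of red cells and of other cells moved beside the globins in several directions. The summed signal of 5 of 8 erythroid markers that have a probe set (SLC4A1, AHSP, CA1, KLF1 and GATA1) was 384 to 477 at 60dG, 632 to 732 at 90dG, 444 to 696 at 125dG and 641 to 773 at 160dG. It was higher at 160dG than at 60dG, and most of that difference lay in SLC4A1, since without it the other 4 markers summed to 416 to 485 at 160dG and 359 to 435 at 60dG, with overlap (an alternative chosen after seeing the data). SLC4A1, the anion exchanger of red cells and of acid-secreting cells of the collecting duct, had means of 239.9 at 160dG and 33.6 at 60dG. For AHSP, the chaperone of free alpha chains, they were 107 at 160dG and 148 at 60dG. SLC4A1 and AHSP were named after their values were seen. At 160dG and 60dG the means of CA1 were 194 and 112, those of KLF1 80.8 and 55.45, and those of GATA1 63.7 and 81.75. All 5 erythroid markers lay below the filter. Markers of liver plasma proteins, 4 of 4, summed to 2035 to 3835 at 60dG, 3808 to 4341 at 90dG, 525 to 1200 at 125dG and 297 to 395 at 160dG. The sum was low from 125dG, as HBE1 was. Most of it at 60dG and 90dG was AFP, with stage means of 2320, 3541, 541 and 88. The means of ALB (259, 75.1, 32.0 and 51.4) and AHSG (147, 89.4, 51.3 and 83.5) were already lower at 90dG than at 60dG, and that of APOA1 was highest at 90dG. Cycling cell markers, 3 of 3, summed to 355 to 542 at 160dG and 1970 to 2358 at 60dG. Leukocyte markers, 4 of 5, summed to 253 to 462 at 160dG and 85.4 to 176 at 60dG. All 4 lay below the filter. The means of LYZ, CD14 and CD79A were higher at 160dG, while PTPRC had 36.0 at 160dG and 39.15 at 60dG. Platelet markers, 3 of 3 and all below the filter, summed to 237.6 to 424.2 at 60dG, 41.6 to 217 at 90dG and 177.1 to 237 at 160dG. Endothelial markers, 3 of 3, summed to 1369 to 1528 at 160dG and 983 to 1137 at 60dG. The part of any of these marker sets in the globin signals was not tested.

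Lists of genes of red cell biology were also counted between 60dG and 160dG, where 9.83% of all tested probe sets were called. The lists are too short for their counts to be told from that share. Among their genes above the filter are the members RHAG, TFRC, SLC25A37 and BPGM. Of the red cell membrane and cytoskeleton list, 3 of 21 genes passed the filter, and DMTN, which binds actin and spectrin in the membrane skeleton, rose by 0.89 ± 0.26 between 60dG and 160dG (limma, adjusted p = 0.0492). In the haem synthesis list 0 of 5 genes above the filter were called in that comparison, with a median difference of 0.06. In the iron list 0 of 7 were called, with a median of 0.19, and FTL, the ferritin light chain, had a difference of 0.68 ± 0.25 (limma, adjusted p = 0.105). Of the red cell enzyme and late erythroid list 0 of 9 were called, with a median of 0.33, and of the erythropoietin signalling list 0 of 3, with a median of 0.19. The median over all tested probe sets was -0.02. Between 60dG and 90dG, where 8.86% of all were called, UROD of haem synthesis rose by 0.85 ± 0.21 (limma, adjusted p = 0.0261), FTL by 1.06 ± 0.25 (0.0196) and SELENBP1, a selenium-binding protein of the red cell enzyme list, by 0.85 ± 0.18 (0.0135). Each of these 3 also passed the F test over the stages (limma, adjusted p = 0.0485, 0.0326 and 0.0207), and each had its highest mean among the fetal stages at 90dG, the stage that holds the arrays with the raised GAPDH ratio, whose part in this was not tested.

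Among erythroid transcription factors, 1 of the 4 above the filter was called. BCL11A, which represses gamma globin in adult red cell precursors of humans and mice and also acts in lymphocytes and neurons, fell by 1.48 ± 0.31 between 60dG and 160dG (limma, adjusted p = 0.00726), with means of 180 at 160dG and 507 at 60dG. LMO2, KLF3 and GATA2 differed by 0.47 ± 0.26, 0.07 ± 0.31 and 0.24 ± 0.36. KLF1 and GATA1, the master regulators of the red cell lineage, were below the filter, with signals no higher than 161 and 112 on any fetal array.

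The genes whose signals were most like those of HBE1 over the 11 fetal arrays were UBE2C (Pearson r = 0.965), AFP (0.964), NUSAP1 (0.950), TUBA1B (0.950) and TIMP1 (0.949). UBE2C and NUSAP1 act in mitosis, AFP is the fetal plasma protein alpha-fetoprotein, TUBA1B is a tubulin and TIMP1 an inhibitor of metalloproteinases. For HBB (211696_x_at) they were SLC25A4 (0.956), CTSK (0.953), JAM2 (0.903), PNRC1 (0.893) and REEP5 (0.890). Of these 5, JAM2, an adhesion molecule of endothelium, differed by 0.75 ± 0.20 between 60dG and 160dG (limma, adjusted p = 0.0295) and REEP5 by 0.61 ± 0.17 (0.0403). All points share the 4 stages, so these correlations describe a like course over gestation and carry no test.

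The adult arrays were set beside the fetal ones by rank within each array, since the tables and array types differ. The 3 HBB probe sets had median percentiles of 94.1 to 95.1 in adults, against 82.2 to 83.6 at 160dG. Their adult signals were 1013 to 1498, 1315 to 1716 and 1126 to 1516. HBE1 had 199.5, 331 and 256 in adults aged 6, 7 and 12 years, a median percentile of 57.9 against 33.8 at 160dG, so it was not lower in adults by this measure. How far these adult signals reflect HBE1 transcript was not tested. HBZ had 5.5 to 9.7 and ALAS2 11.1 to 12.1, both at the bottom of the array.

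The joint probe sets separated in adults. The 3 gamma sets had adult means of 72.5 to 429, with median percentiles of 17.2 to 73.4, against 96.4 to 97.4 at 160dG. The 6 alpha sets had adult means of 709 to 1081 and median percentiles of 90.2 to 94.0, against 90.6 to 96.2 at 160dG. Of the other members, BPGM had 343, 334 and 427 (median percentile 69.5 against 55 at 160dG), RHAG on 211254_x_at 451, 411 and 471 (78.1 against 60.2), and TFRC on 208691_at 382, 210 and 215 (50.2 against 79.4). SLC25A37 on 218136_s_at had 61.6 against 64.2. No test was made on these ranks, and the effect of the array type on them was not tested.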

How the data were processed

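Trizol-extracted kidney RNA was converted to biotin-labelled cRNA for human Affymetrix arrays, per the labels' protocols. The deposited files give an intensity per probe set on a linear scale. Per the submitters' processing notes the authors used GCOS; version, algorithm and scaling target: not given in the sources used here. Of 16186 probe sets, 43 are controls, and the platform annotation names 1 gene for 14068, several for 735 and none for another 1340.

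The analysis used the deposited intensity values without rescaling, as log2(signal + 16), a scale that understates fold changes of dim probe sets. Those with a mean above the median of all (7.60 on this scale), 8066 in number, entered 1 limma model of the 11 fetal arrays (limma 3.58.1, R 4.3.3; lmFit, then eBayes with trend). Benjamini-Hochberg adjustment ran over all of them, with a threshold of 0.05, and the fit was checked on simulated data. Exact permutation tests (Python 3.11.15, scipy 1.17.1) served for slopes of within-array differences and for correlations within stages. All p-values measure the spread between these arrays.

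All probe sets of the 9 members are named, with the 5 genes most correlated with HBE1 and with HBB and up to 4 genes per list with the largest difference between 160dG and 60dG above the filter. The members and lists were chosen with earlier results of these data known. Deviations of same-numbered arrays of different stages had r from -0.10 to 0.20 (15 pairs, 3 over 0.1). Those of different-numbered arrays had r from -0.18 to 0.19 (30 pairs, 4 over 0.1). The main model therefore did not pair the arrays by number. The deviations are from means of few arrays per stage, so these values cannot exclude a pairing. Alternatives were a pseudocount of 1 or 64, no filter, quantile normalization, a single probe set per gene, a block for the replicate number, the GAPDH ratio or HBB as a covariate, each array left out, and no 90dG group. The joint alpha probe sets as a covariate or denominator were chosen after the values were seen. Plots used matplotlib 3.10.9.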

Additional observations from a re-analysis of the deposited data

How the results depend on the processing

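The counts of member probe sets kept within 1.5 times of their value under most alternatives. Over the stages, 4 member probe sets were called, those of HBE1 and HBB. The count was 2 with 1 probe set per gene, by construction, or with the alpha covariate. Between 60dG and 160dG the 4 calls became 2 with 1 probe set per gene and 0 with the alpha covariate, and the 1 call outside HBB became 0 with the HBB covariate; the cause was not tested. The 1 call between 60dG and 90dG became 0 with 1 probe set per gene, which leaves out 217232_x_at, and the 1 between 90dG and 125dG became 2 with no filter, which adds HBZ. Between 125dG and 160dG, 209116_x_at of HBB was called with a pseudocount of 64 (1 call; limma, adjusted p = 0.0498) and with quantile normalization (1 call; 0.0479), and the count was 0 to 1 with an array left out, the call appearing without 90dG replicate 1 (0.0386) or 160dG replicate 2 (0.0329). With a pseudocount of 1 the slope of HBE1 minus ALAS2 was -0.17 (exact permutation, adjusted p = 0.0502), and that of HBZ minus alpha -0.23 (0.0176), while a pseudocount of 64 turned the sign of HBZ minus alpha to 0.039 (0.529). The slope of gamma minus alpha was 0.045 to 0.067 with an array left out, and passed without 90dG replicate 2 (exact permutation, adjusted p = 0.0388). The correlation of HBB with RHAG was -0.83 to 0.31 with an array left out and reversed without 90dG replicate 2. The replicate block left the member counts at 4, 4, 1, 1 and 0 and changed no member call; over all probe sets it gave 2 calls between 125dG and 160dG, against 18. Counts over all probe sets with an array left out were 806 to 1815 over the stages (1432), 311 to 948 between 60dG and 160dG (793), 98 to 1088 between 60dG and 90dG (715), 111 to 1034 between 90dG and 125dG (546) and 0 to 27 between 125dG and 160dG (18). Under the other alternatives they were 299 to 1479, 29 to 1034, 386 to 741, 62 to 573 and 0 to 31. The dimmest members, HBZ, HBD and ALAS2, are limited by their signal over background.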
